A study of Homo sapiens with 12 samples.

Results

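Silencing of SOX2 was examined in cells labelled as the line H1299, human cells from a non-small cell lung cancer, cultured as spheroids. The comparison was of 3 RNA sequencing libraries of the SOX2 knockdown (SOX2_KD) with 3 libraries of its non-targeting control (NT2). The genes described are those that reached at least 0.5 RPKM (reads scaled to gene length and library size) in at least 3 of these 6 libraries, after entries whose name occurs more than once were left out. They number 17163 of the 64253 entries in the deposited table, and the 6 libraries belong to a series of 12. The genes just inside the level limit were SPATA25 and NLRP1, at 0.5004 and 0.5006 RPKM in their third-highest library, and those just outside were CTD-2514C3.1, at a value that rounds to the limit from below, and CTD-2561J22.5, at 0.4999 RPKM.

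SOX2 is a transcription factor of the SOX family that binds DNA through an HMG box. It maintains pluripotency in embryonic stem cells, is needed for the development of the foregut and the airway epithelium, and marks neural progenitors. In lung cancer it is best known as a lineage gene of squamous tumours, where its region on the long arm of chromosome 3 is often amplified together with PRKCI, a kinase gene that the same series also silenced.

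The cells of both groups carried a lentiviral short hairpin RNA, against SOX2 in SOX2_KD and against no target in NT2. The labels give neither the number of hairpins nor whether replicates were separate cultures, so that the loss of SOX2 and effects of a hairpin on other RNAs cannot be told apart, and p-values measure the spread between these libraries, which may be technical. Each of the 6 libraries took 120 ng of RNA, its kit kept no record of strand, and all were read as pairs of 101 bases on lane 7 of a flow cell that both groups shared. The other 6 libraries, the control NT1 and the PRKCI knockdown PRKCI_KD, ran on lane 8 of another flow cell and are used only to show levels.

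The read totals recovered from the table were 77.1 to 109.3 M in NT2 and 82.8 to 124.3 M in SOX2_KD, and the 10 most abundant genes took 5.14% to 7.07% of the reads. Mitochondrial genes took 4.12% to 4.97% of the reads in NT2 and 5.9% to 6.14% in SOX2_KD, with no overlap between the groups. Across 19777 genes, log2(RPKM + 1) correlated at 0.989 to 0.997 among these 6 libraries and at 0.826 to 0.838 between them and the NT1 and PRKCI_KD libraries, although all 12 are labelled H1299. On the second principal component of the 6 libraries, which held 30% of their variance, replicate 1 of both groups stood apart from the other 4 libraries, while the first, with 46.2%, separated SOX2_KD from NT2.

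Levels of lineage genes differed widely between the pairs of groups. PDGFRA, a growth factor receptor, reached 146 ± 11.4 RPKM in NT2 libraries and 117 ± 5.19 RPKM in those of SOX2_KD (SD, n = 3, as for every mean below), but 0.0506 ± 0.0114 RPKM in NT1. The receptor kinase AXL was at 0.132 ± 0.0627 RPKM in NT2 against 141 ± 10.3 RPKM in NT1, and the adhesion receptor CD44 at 0.000606 ± 0.00105 RPKM against 33.4 ± 1.68 RPKM. These differences coincide with the flow cells, and their cause was not tested. The label H1299 was not checked further, and each test below stays within the pair of NT2 and SOX2_KD.

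**Figure D1:**
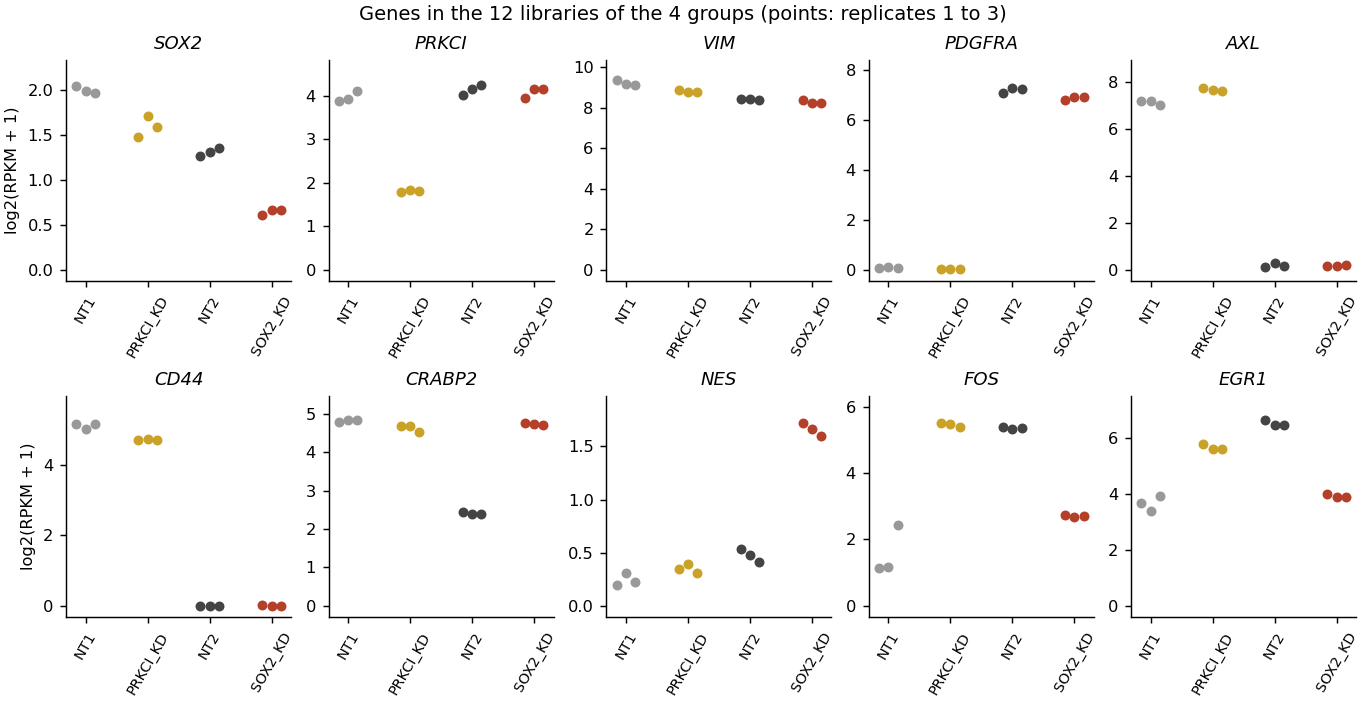
Log2(RPKM + 1) of 10 genes in the 12 libraries of the 4 groups, each point a library. PDGFRA is high in NT2 and SOX2_KD and near 0 in NT1 and PRKCI_KD, AXL and CD44 show the reverse, and SOX2 is lowest in SOX2_KD.

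SOX2 itself was lower in SOX2_KD. Its level was 1.41, 1.49 and 1.55 RPKM in the control and 0.523, 0.582 and 0.588 RPKM in the knockdown. Every knockdown library lay below every control, and the mean of the knockdown was 0.381 of that of the control. The log2 fold change, here always the difference of mean log2(RPKM + 1) in SOX2_KD minus NT2, was -0.66 ± 0.0529 (SE, adjusted p = 0.00264, limma-trend over all 17163 genes). The values correspond to 324, 408 and 301 reads in NT2 and to 163.5, 135 and 122.4 in SOX2_KD. In 2 of the knockdown libraries they are therefore not whole reads, a point taken up with the developmental pathways below. SOX2 lies inside the non-coding gene SOX2-OT on the same strand, which was at 0.0126 ± 0.00625 RPKM in NT2. PRKCI was at 16.7 RPKM in the control and 16.1 RPKM in the knockdown, and its change did not pass the threshold.

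Of 20 SOX genes listed, 7 were measured and 2 fell, the silenced SOX2 itself and SOX18, a factor of vascular and lymphatic development. The share that fell over all genes was 4.9%. SOX18 was at 15.2, 12.2 and 11.9 RPKM in the control and 9.4, 7.5 and 7.73 RPKM in the knockdown. The groups did not overlap, and the log2 fold change was -0.61 ± 0.113 (adjusted p = 0.0247). Its call was lost without NT2 replicate 2 or 3 or SOX2_KD replicate 2 or 3 (adjusted p 0.0759, 0.0574, 0.098 and 0.105), which left SOX2 as the 1 SOX gene called. SOX4, at 4.64 RPKM in the control and 3.92 RPKM in the knockdown, and SOX15, at 0.799 RPKM in the control and 0.609 RPKM in the knockdown, had log2 fold changes of -0.20 and -0.17 and did not pass the threshold.

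Across all genes, 1501 of 17163 passed an adjusted p of 0.05, which is 8.75%: 660 were higher in SOX2_KD (3.85%) and 841 lower (4.9%). The changes were mostly small. The median absolute log2 fold change of the called genes was 0.32, against 0.1 for all genes. On this scale 68 called genes were at least 1.5-fold higher and 84 at least 1.5-fold lower, and 6 and 13 passed 2-fold. The 3 SOX2_KD libraries lay all above the 3 of NT2 for 13.1% of the genes and all below for 20.1%, and every called gene was among these. The median log2 fold change of all genes was -0.03. Among the genes outside the 16 set aside under developmental signalling below, 58.2% had the lower mean in SOX2_KD. Counts of members of gene lists below are to be read beside these shares of all genes.

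The number of calls depended on single libraries. It was 193 without NT2 replicate 2, 316 without NT2 replicate 3, 761 without SOX2_KD replicate 1, 133 without SOX2_KD replicate 2 and 134 without SOX2_KD replicate 3. The genes called in all 6 fits that left a library out number 106, 53 higher and 53 lower, and are named firm calls below. With the replicate number as a block, 5235 genes passed (30.5%), 1868 higher (10.9%) and 3367 lower (19.6%), and 1499 of the 1501 were among them. Without replicate 1 of both groups, an alternative chosen after seeing the data, 4167 passed. Leaving out a single library also unbalances the replicate numbers, and replicate 1 of both groups stood apart. The words firm and lost below therefore describe only the fits with 1 library left out, and nearly all lost calls were kept with the block. Quantile normalization gave 765 higher and 578 lower, and scaling by the median of ratios 815 and 607, so that the side with more calls turned.

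**Figure D2:**
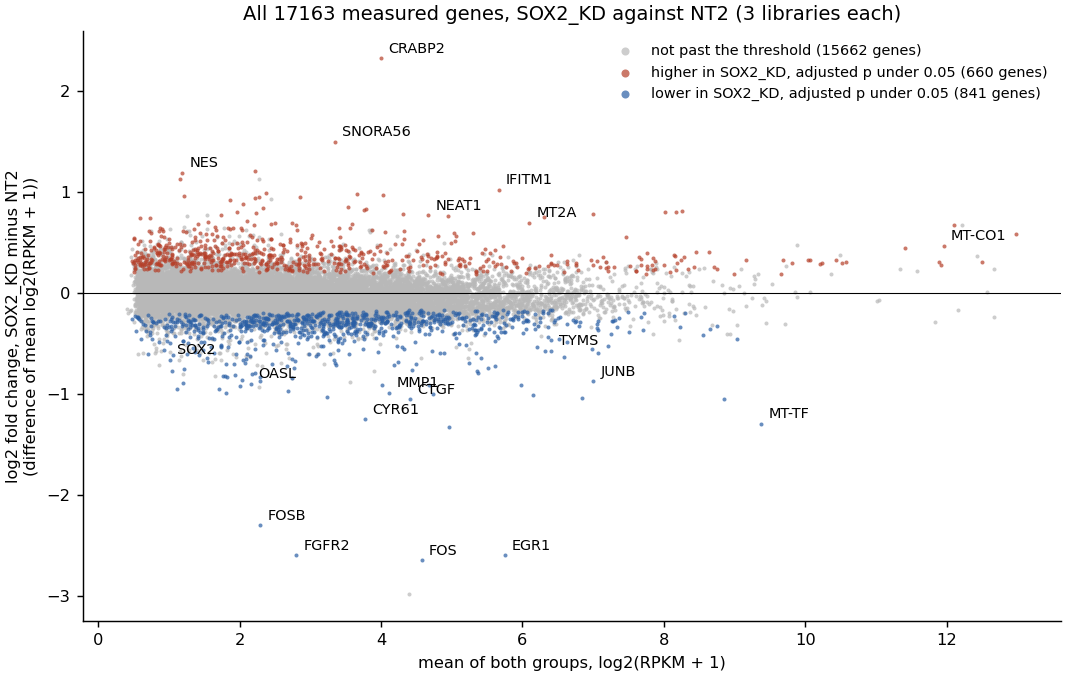
Log2 fold change of SOX2_KD minus NT2 (vertical) against the mean level in log2(RPKM + 1) (horizontal) for 17163 measured genes, with the 660 higher and 841 lower calls coloured. FOS, EGR1, FGFR2 and FOSB lie between -2.65 and -2.3, and CRABP2, at 2.32, is the highest point.

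**Figure D3:**
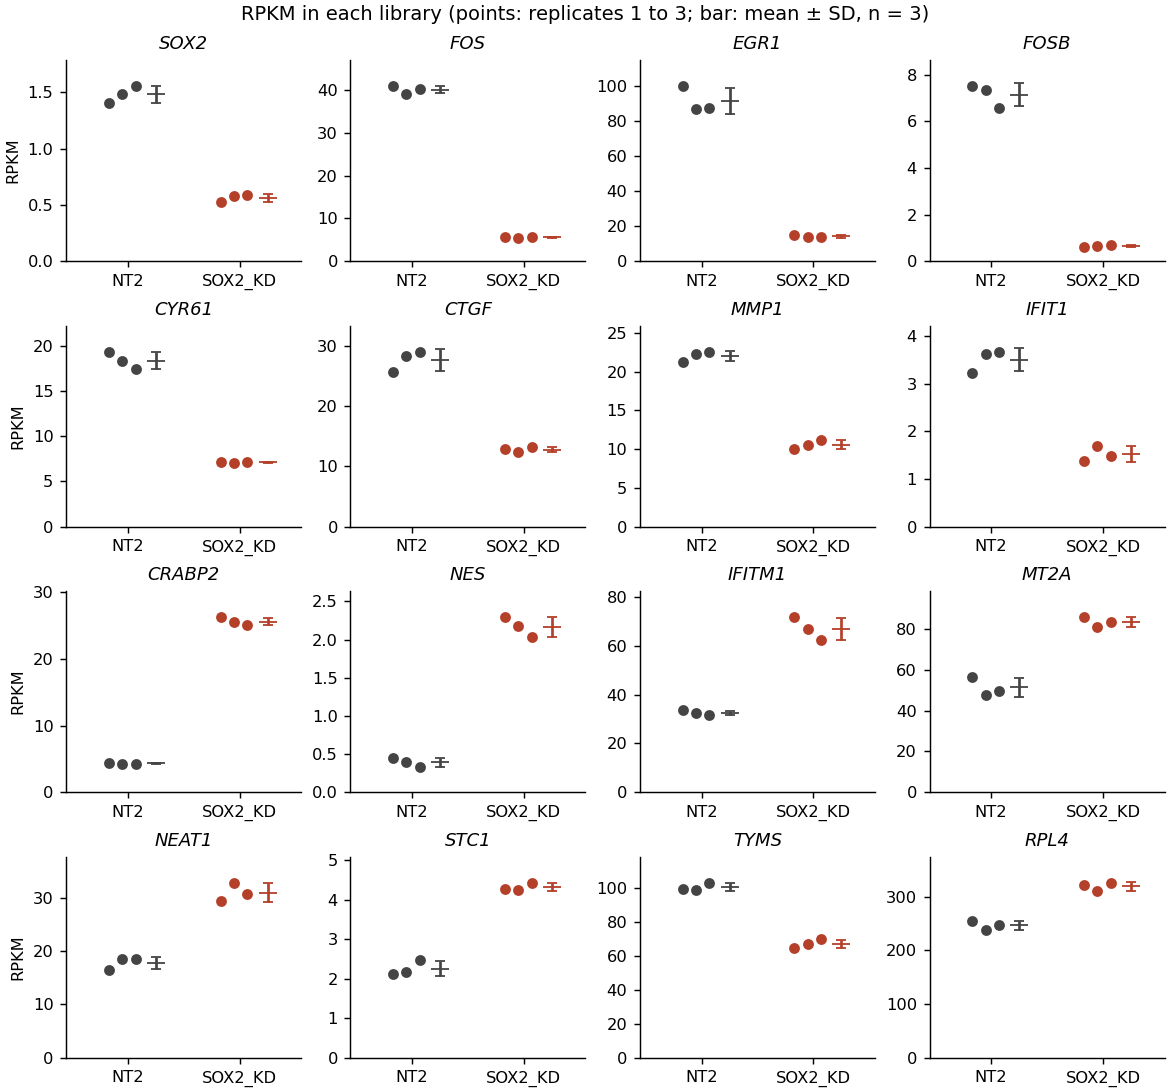
RPKM of 16 genes in each library of NT2 and SOX2_KD, with mean and SD (n = 3) beside the points. In each panel the 3 points of a group lie apart from the 3 of the other, with FOS at 40.9, 39.2 and 40.2 RPKM against 5.65, 5.43 and 5.57 RPKM.

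Among the deepest falls were those of immediate early genes, which growth factors and stress switch on within minutes through MAP kinases, the serum response factor and CREB. They include AP-1 factors, whose FOS and JUN proteins pair to bind DNA. The promoters of FOS and EGR1 (RefSeq, GRCh38.p14) are shown for the elements of those factors, and because these had the lowest log2 fold changes of the called genes. By the ratio of means FOSB fell further, as did FGFR2, one of the genes set aside under developmental signalling below. In the FOS window, chr14:75278578-75278877 on the + strand, the capitals mark its only TGACGT, the core of a CREB site, which begins 64 bases before the gene start. In the EGR1 window, chr5:138465229-138465528 on the + strand, they mark 2 CArG boxes, the element of the serum response factor, which begin 105 and 83 bases before the start. The EGR1 window also holds 2 TGACGT motifs, not marked, and the FOS window holds no CArG box. The windows reach only 250 bases before the start, and sites further away were not searched. Both motifs were searched on both strands in 35116 RefSeq promoter windows of 300 bases, of which 8.0% held TGACGT and 1.3% a CArG box.
FOS: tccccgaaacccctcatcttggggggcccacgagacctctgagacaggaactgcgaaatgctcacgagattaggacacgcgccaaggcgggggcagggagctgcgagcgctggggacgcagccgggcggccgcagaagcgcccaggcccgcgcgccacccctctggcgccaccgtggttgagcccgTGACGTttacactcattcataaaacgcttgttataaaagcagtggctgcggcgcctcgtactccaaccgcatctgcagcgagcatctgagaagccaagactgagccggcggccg
EGR1: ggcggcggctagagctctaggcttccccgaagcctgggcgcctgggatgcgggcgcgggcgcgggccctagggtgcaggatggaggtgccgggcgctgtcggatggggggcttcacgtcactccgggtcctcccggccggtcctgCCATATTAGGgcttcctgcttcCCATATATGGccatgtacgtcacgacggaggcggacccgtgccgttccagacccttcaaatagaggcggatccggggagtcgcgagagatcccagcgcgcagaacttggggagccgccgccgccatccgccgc

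FOS was at 40.9, 39.2 and 40.2 RPKM in the control and 5.65, 5.43 and 5.57 RPKM in the knockdown. The knockdown libraries lay close together at 0.138 of the control mean (log2 fold change -2.65 ± 0.0443, adjusted p = 9.69e-07). FOSB, its close relative, was at 7.5, 7.35 and 6.59 RPKM in the control and 0.621, 0.636 and 0.694 RPKM in the knockdown, 0.091 of the control mean (log2 fold change -2.3 ± 0.0612, adjusted p = 9.26e-06). Its annotated span overlaps ERCC1 on the other strand, which was at 18.1 RPKM in the control and 16.1 RPKM in the knockdown and did not pass the threshold. EGR1, a zinc finger factor of growth responses, was at 100, 86.8 and 87.6 RPKM in the control and 15.1, 13.8 and 13.7 RPKM in the knockdown, 0.155 of the control mean (log2 fold change -2.6 ± 0.0704, adjusted p = 9.26e-06). All 3 were firm calls, with the groups far apart. In the other pair of groups, FOS was at 2.28 ± 1.83 RPKM in NT1 and 43.5 ± 1.89 RPKM in PRKCI_KD, and EGR1 at 11.9 ± 2.38 RPKM and 50.3 ± 3.68 RPKM.

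Of 13 measured AP-1 genes 4 fell and none rose, and the median log2 fold change of the list was -0.09. Beside FOS and FOSB, JUN was at 29.4, 24.9 and 24.7 RPKM in the control and 17.1, 14.5 and 13.6 RPKM in the knockdown. JUNB was at 190.4, 154 and 149.6 RPKM in the control and 105, 82 and 81.9 RPKM in the knockdown. In both genes replicate 1 was the highest library of its group, and the groups did not overlap. The log2 fold changes were -0.77 ± 0.0996 for JUN and -0.87 ± 0.126 for JUNB (adjusted p = 0.0104 and 0.0139). Their calls were lost in some or all of the fits without NT2 replicate 2 or SOX2_KD replicate 2 or 3 (adjusted p 0.0527 to 0.0666 where lost), and calls in the list numbered 2 lower without SOX2_KD replicate 2 or 3. JUNB overlaps HOOK2 on the other strand, which was at 14.8 RPKM in the control and 10.6 RPKM in the knockdown. The members that did not pass lay between -0.33 and 0.18, JUND at 61.5 RPKM in the control and 48.6 RPKM in the knockdown the most abundant among the lower ones. The replicate block gave 3 higher and 5 lower, JUND among the latter (adjusted p = 0.00812).

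Of 19 measured immediate early genes outside the AP-1 list 10 fell and 2 rose, with a median log2 fold change of -0.40, and 17 had the lower mean in SOX2_KD. DUSP1, a phosphatase of MAP kinases, fell from 20.1 ± 0.506 to 10.1 ± 0.473 RPKM (log2 fold change -0.92). ZFP36, which speeds the decay of cytokine messages, fell from 50.6 ± 3.81 to 29.1 ± 2.14 RPKM (-0.78). The Krüppel-like factors KLF10 and KLF6 fell from 51.1 ± 1.7 to 32.2 ± 1.14 RPKM (-0.65) and from 86.5 ± 2.96 to 59.1 ± 1.95 RPKM (-0.54). With EGR1 these were the firm falls of the list. IER2, EGR4, KLF2, DUSP2 and NR4A1 fell by 0.92, 0.60, 0.49, 0.44 and 0.40 on the log2 scale. Their calls were lost in some or all of the fits without NT2 replicate 2 or 3 or SOX2_KD replicate 1, 2 or 3 (adjusted p 0.0519 to 0.132 where lost). GADD45B, a stress-induced gene, rose from 3.96 ± 0.49 to 5.94 ± 0.727 RPKM and BTG2, an antiproliferative gene, rose from 4.05 ± 0.111 to 5.15 ± 0.321 RPKM, calls lost without NT2 replicate 2 or 3 or SOX2_KD replicate 1, 2 or 3 (adjusted p 0.061 to 0.131 where lost). Calls in the list numbered 5 lower without SOX2_KD replicate 2 or 3.

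Genes that report on the ERK MAP kinase were less uniform. Of 16 measured, 4 fell and 1 rose, with a median of -0.14. DUSP6, the phosphatase that feeds back on ERK, was at 5.11, 5.4 and 5.3 RPKM in the control and 2.5, 2.53 and 2.55 RPKM in the knockdown (log2 fold change -0.83 ± 0.0472, adjusted p = 0.00068). The groups lay apart and the call was firm. The Sprouty genes, feedback inhibitors of receptor kinases, did not move together: SPRY1 rose from 2.83 ± 0.0902 to 4.25 ± 0.0723 RPKM, a firm call, while SPRY2 fell from 6.58 ± 0.537 to 4.97 ± 0.179 RPKM and SPRY4 from 22.3 ± 1.09 to 18.1 ± 0.518 RPKM. PHLDA1, another ERK-induced gene, fell from 35.9 ± 0.602 to 31.1 ± 0.408 RPKM. The calls of SPRY2, SPRY4 and PHLDA1 were lost in some or all of the fits without NT2 replicate 2 or 3 or SOX2_KD replicate 1, 2 or 3 (adjusted p 0.056 to 0.145 where lost). In all, calls numbered 1 higher and 1 lower without NT2 replicate 2 or 3 or SOX2_KD replicate 2 or 3 and 1 higher and 2 lower without SOX2_KD replicate 1, 2 higher and 1 lower in the fit of all 12 libraries and 3 higher and 10 lower with the replicate block.

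CYR61 and CTGF, secreted matricellular proteins and textbook targets of the YAP and TEAD factors of the Hippo pathway, fell together. The promoter of CTGF (listed as CCN2 in RefSeq), chr6:131951323-131951622 on the − strand of GRCh38.p14, is shown because it holds GGAATG, the core bound by TEAD proteins, 3 times. The motifs, in capitals, begin 169, 104 and 95 bases before the start. At least 1 such motif on either strand was in 14% of the 35116 windows.
CTGF: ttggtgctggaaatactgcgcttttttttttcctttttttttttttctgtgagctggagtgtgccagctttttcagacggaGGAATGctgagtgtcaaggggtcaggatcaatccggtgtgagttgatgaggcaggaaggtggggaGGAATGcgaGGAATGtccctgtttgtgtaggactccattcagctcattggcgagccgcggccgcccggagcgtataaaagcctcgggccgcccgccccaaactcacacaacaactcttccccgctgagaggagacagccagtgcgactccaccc

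CYR61 was at 19.3, 18.3 and 17.5 RPKM in the control and 7.14, 6.99 and 7.17 RPKM in the knockdown (log2 fold change -1.26 ± 0.0519, adjusted p = 0.000146). CTGF was at 25.6, 28.4 and 29 RPKM in the control and 12.9, 12.3 and 13.1 RPKM in the knockdown (log2 fold change -1.05 ± 0.0603, adjusted p = 0.00068). Both calls were firm, with no overlap between groups. The other 15 of 17 measured YAP and TEAD targets did not pass the threshold and lay between -0.23 and 0.17, and the median of the list was 0.04. MYOF, a membrane repair protein and the most abundant of them, was at 92 RPKM in the control and 100.4 RPKM in the knockdown. With the replicate block 3 higher and 3 lower were called.

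Of 10 measured matrix metalloproteinases, enzymes that cut collagen and other matrix, and their inhibitors, 4 fell and none rose, with a median of -0.29. MMP1, interstitial collagenase, was at 21.2, 22.3 and 22.6 RPKM in the control and 9.97, 10.6 and 11.2 RPKM in the knockdown (log2 fold change -0.99 ± 0.0567, adjusted p = 0.00068). MMP10, stromelysin 2, was at 3.32, 3.31 and 3.29 RPKM in the control and 0.974, 1.29 and 1.45 RPKM in the knockdown (log2 fold change -0.95 ± 0.0834, adjusted p = 0.00333). These calls were firm and the groups did not overlap. Both genes overlap the pseudogene WTAPP1 on the opposite strand, which was at 2.55 RPKM in the control and 1.26 RPKM in the knockdown, and without strand their reads cannot be told apart. MMP9, gelatinase B, fell from 4.06 ± 0.525 to 2.18 ± 0.157 RPKM, and the inhibitor TIMP2 fell from 23.4 ± 1.19 to 18.8 ± 0.0639 RPKM. Their calls were lost in some or all of the fits without NT2 replicate 2 or SOX2_KD replicate 1, 2 or 3 (adjusted p 0.0521 to 0.10 where lost). The calls of the list came to 2 lower without SOX2_KD replicate 2 or 3, and 7 lower with the replicate block.

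Interferon-stimulated genes moved in both directions. IFIT1, IFIT2 and IFIT3, whose proteins bind viral RNA, and OASL, an antiviral relative of the oligoadenylate synthetases, fell, while IFITM1, a membrane protein that blocks virus entry, rose. The promoters of IFIT1, chr10:89392373-89392672 on the + strand, and IFITM1, chr11:313790-314089 on the + strand (RefSeq, GRCh38.p14), are shown because genes that moved in opposite directions hold the same element. The capitals mark 2 GAAA words that 2 bases separate, the core of the interferon-stimulated response element, or its reverse complement. Both windows hold 2, beginning 116 and 103 bases before the start of IFIT1 and 40 and 6 bases before that of IFITM1, and 3.6% of the 35116 windows hold at least 1 on either strand.
IFIT1: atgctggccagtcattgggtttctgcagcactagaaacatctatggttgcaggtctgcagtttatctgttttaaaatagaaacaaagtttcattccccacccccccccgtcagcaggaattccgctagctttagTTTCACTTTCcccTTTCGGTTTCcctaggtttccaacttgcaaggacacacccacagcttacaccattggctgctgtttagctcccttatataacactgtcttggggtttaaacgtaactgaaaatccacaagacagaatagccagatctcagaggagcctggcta
IFITM1: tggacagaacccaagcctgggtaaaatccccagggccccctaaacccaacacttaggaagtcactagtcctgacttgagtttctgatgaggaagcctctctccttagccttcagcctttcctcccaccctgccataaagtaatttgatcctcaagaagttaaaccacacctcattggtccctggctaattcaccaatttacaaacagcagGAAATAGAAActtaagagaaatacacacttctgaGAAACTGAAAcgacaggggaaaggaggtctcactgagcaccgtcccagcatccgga

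IFIT1 was at 3.23, 3.63 and 3.67 RPKM in the control and 1.38, 1.71 and 1.49 RPKM in the knockdown (log2 fold change -0.84 ± 0.0709, adjusted p = 0.00305). IFIT3 fell from 3.36 ± 0.357 to 1.46 ± 0.0832 RPKM (log2 fold change -0.82 ± 0.0718, adjusted p = 0.00329) and OASL from 4.85 ± 0.465 to 2.12 ± 0.0612 RPKM (log2 fold change -0.90 ± 0.0677, adjusted p = 0.00229). These falls were firm, with each SOX2_KD library below each control. IFITM1 was at 33.5, 32.3 and 31.7 RPKM in the control and 71.6, 66.6 and 62.5 RPKM in the knockdown (log2 fold change 1.02 ± 0.0602, adjusted p = 0.000745), a firm rise without overlap. Its annotated span overlaps IFITM2 on the same strand, a near copy at 68.9 RPKM in the control and 79.6 RPKM in the knockdown that did not pass the threshold, so that the counting could have split reads they share.

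Of 29 measured interferon genes 5 fell and 2 rose, and the rest lay between -0.39 and 0.21, with a list median near 0. Over all genes 4.9% fell and 3.85% rose. IFIT5 was at 3.81 RPKM in the control and 3.36 RPKM in the knockdown and did not pass the threshold. IFIT2 fell from 4.76 ± 0.929 to 2.27 ± 0.205 RPKM and HERC5, a ligase for the ubiquitin-like ISG15, fell from 8.95 ± 0.426 to 7.31 ± 0.40 RPKM. LGALS3BP, a secreted glycoprotein, rose from 1.3 ± 0.107 to 2.17 ± 0.127 RPKM. The calls of IFIT2, HERC5 and LGALS3BP were lost in some or all of the fits without NT2 replicate 2 or 3 or SOX2_KD replicate 1, 2 or 3 (adjusted p 0.0597 to 0.138 where lost). For the whole list the calls were 1 higher and 3 lower without SOX2_KD replicate 3, and 4 higher and 9 lower with the replicate block.

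CRABP2, which carries retinoic acid to its receptors in the nucleus, had the highest log2 fold change of the called genes. It was at 4.4, 4.29 and 4.26 RPKM in the control and 26.2, 25.5 and 25.1 RPKM in the knockdown, 5.93 times the control mean (log2 fold change 2.32 ± 0.0447, adjusted p = 1.42e-06). NES, nestin, an intermediate filament of neural progenitors, was at 0.443, 0.393 and 0.334 RPKM in the control and 2.29, 2.18 and 2.03 RPKM in the knockdown, 5.55 times the control mean (log2 fold change 1.19). For both genes the groups lay far apart and the calls were firm. NES passed the level limit only through the SOX2_KD libraries, where it is high, so that its levels are a description and its call adds no support. In NT1 CRABP2 was at 27.2 ± 0.635 RPKM, near its level in SOX2_KD, and NES at 0.184 ± 0.0503 RPKM, below its level in NT2.

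CRABP2 and NES lie near each other in GENCODE v29 (GRCh38), NES at chr1:156668763-156677397 and CRABP2 at chr1:156699606-156705816, both on the − strand and 22.2 kb apart. Within 200 kb on either side, 10 other measured genes lay between -0.10 and 0.24, with a median of 0.03, and none passed the threshold in the limma fit. The replicate block called 4 of them higher and none lower, BCAN among the 4 (adjusted p = 0.034), and limma-voom called BCAN alone (adjusted p = 0.0239). On the one side BCAN, which codes for the matrix protein brevican, was at 0.334 RPKM in the control and 0.576 RPKM in the knockdown (log2 fold change 0.24, adjusted p = 0.0728) and passed the level limit only through SOX2_KD. On the other ISG20L2, an exonuclease gene, was at 8.48 and 8.66 RPKM. This neighbourhood was examined after both rises had been seen.

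Of 14 measured genes that make, carry or answer to retinoic acid 3 rose and 1 fell, with a median of 0.08. RARB, a retinoic acid receptor that is itself induced by retinoic acid, rose from 0.893 ± 0.0761 to 1.54 ± 0.101 RPKM (log2 fold change 0.42). TGM2, a transglutaminase and known target, rose from 2.65 ± 0.0855 to 3.75 ± 0.272 RPKM (0.38). FABP5, another carrier of retinoic acid, fell from 12.2 ± 0.232 to 10.2 ± 0.418 RPKM (-0.23). The calls of RARB, TGM2 and FABP5 were lost in some or all of the fits without NT2 replicate 2 or 3 or SOX2_KD replicate 1, 2 or 3 (adjusted p 0.0513 to 0.143 where lost). Called members of the list numbered 1 higher without NT2 replicate 2 or SOX2_KD replicate 2 or 3 and 2 higher without NT2 replicate 3, and 6 higher and 2 lower with the replicate block.

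All 3 measured metallothioneins rose. These small cysteine-rich proteins bind zinc and other metals, and the factor MTF1 induces them through metal response elements. The promoters of MT1X, chr16:56682220-56682519 on the + strand, and MT2A, chr16:56608334-56608633 on the + strand (RefSeq, GRCh38.p14), are shown because these genes moved together. The capitals mark TGCACNC or TGCGCNC, the core of the metal response element, or its reverse complement. MT1X holds 4 and MT2A 8, the last of which begins 30 bases after the start, while 29.6% of the 35116 windows hold at least 1 and 2.3% at least 3.
MT1X: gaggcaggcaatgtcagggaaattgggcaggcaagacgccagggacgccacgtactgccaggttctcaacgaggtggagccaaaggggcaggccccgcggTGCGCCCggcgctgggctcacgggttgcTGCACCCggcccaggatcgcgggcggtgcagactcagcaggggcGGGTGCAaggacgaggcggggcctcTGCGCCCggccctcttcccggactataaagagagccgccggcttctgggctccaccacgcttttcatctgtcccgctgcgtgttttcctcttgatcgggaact
MT2A: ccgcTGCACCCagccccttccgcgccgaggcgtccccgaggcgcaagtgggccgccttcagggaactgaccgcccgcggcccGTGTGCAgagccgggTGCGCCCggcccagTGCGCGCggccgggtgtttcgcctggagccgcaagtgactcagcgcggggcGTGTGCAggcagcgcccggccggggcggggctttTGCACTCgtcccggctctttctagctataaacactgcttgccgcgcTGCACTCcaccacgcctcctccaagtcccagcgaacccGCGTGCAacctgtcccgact

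MT1E was at 9.61, 8.24 and 9.11 RPKM in the control and 16.8, 16.5 and 16.9 RPKM in the knockdown. MT1X was at 23.6, 20.0 and 22.1 RPKM in the control and 36.2, 38.3 and 38.6 RPKM in the knockdown. MT2A was at 56.8, 47.8 and 49.9 RPKM in the control and 85.9, 81.2 and 83.5 RPKM in the knockdown. The groups did not overlap in any of the 3, and the log2 fold changes of 0.83 ± 0.0609, 0.76 ± 0.067 and 0.69 ± 0.0697 (adjusted p = 0.00229, 0.00336 and 0.00518) were firm. They are near copies in a cluster on chromosome 16, so that the counting could have split reads they share. The other metallothioneins of the 11 in the table did not reach the level limit. Of 10 measured genes of zinc handling SLC30A1, the zinc exporter that MTF1 also induces, rose from 10.4 ± 0.904 to 14 ± 1.18 RPKM, a call lost without NT2 replicate 2 or 3 or SOX2_KD replicate 2 or 3 (adjusted p 0.0964, 0.0659, 0.127 and 0.13), and the others did not pass the threshold. With the replicate block 1 higher and 2 lower were called.

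**Figure D4:**
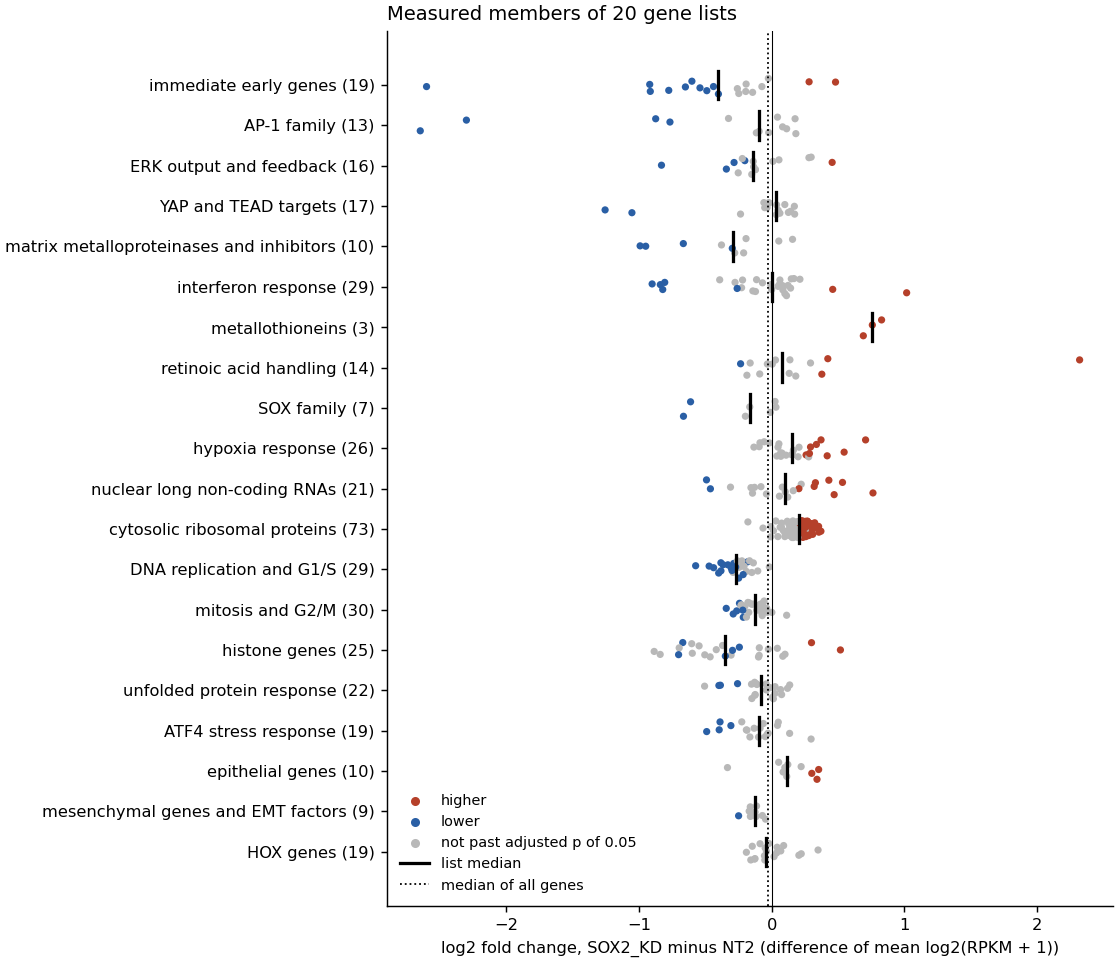
Log2 fold change of SOX2_KD minus NT2 for the measured members of 20 gene lists, each point a gene, with the list median as a bar and the median of all genes (-0.03) dotted. The immediate early, histone and replication lists have medians of -0.40, -0.35 and -0.27, and the ribosomal protein and metallothionein lists of 0.21 and 0.76.

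Of 26 measured genes of the hypoxia response, which the HIF factors control, 8 rose and none fell, with a median of 0.15. STC1, a secreted glycoprotein hormone, was at 2.12, 2.16 and 2.47 RPKM in the control and 4.27, 4.23 and 4.42 RPKM in the knockdown (log2 fold change 0.71 ± 0.0592, adjusted p = 0.00305). SLC2A3, the glucose transporter GLUT3, was at 136, 147 and 144 RPKM in the control and 206, 215 and 205 RPKM in the knockdown (log2 fold change 0.55 ± 0.0484, adjusted p = 0.00336). In both the groups did not overlap, and these were the 2 firm calls of the list. HK2, a hexokinase, rose from 3.65 ± 0.0568 to 5.02 ± 0.0388 RPKM and BNIP3, a mitophagy receptor, from 43.4 ± 0.29 to 52.2 ± 1.68 RPKM, calls lost in some or all of the fits without NT2 replicate 2 or 3 or SOX2_KD replicate 2 or 3 (adjusted p 0.0503 to 0.106 where lost). EPAS1, which encodes a HIF factor and was chosen after its value had been seen, rose from 1.43 ± 0.0521 to 2.3 ± 0.0521 RPKM (log2 fold change 0.44 ± 0.0492, adjusted p = 0.00739), a firm call. Calls in the list numbered 2 higher without NT2 replicate 2 or SOX2_KD replicate 2 or 3 and 3 higher without NT2 replicate 3, and 14 higher and 1 lower with the replicate block.

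Of 705 measured long non-coding genes that could be matched to GENCODE v29, 6.95% rose and 3.12% fell, against 3.15% and 5.8% of 10913 protein-coding genes. NEAT1, the RNA that scaffolds nuclear paraspeckles, was at 16.5, 18.5 and 18.5 RPKM in the control and 29.4, 32.8 and 30.8 RPKM in the knockdown (log2 fold change 0.76 ± 0.0651, adjusted p = 0.00305). The groups did not overlap, and the entries NEAT1_1, NEAT1_2 and NEAT1_3, named as stretches of it and so not separate evidence, rose by 0.79, 0.81 and 0.80. Host genes of snoRNAs rose too, SNHG1 from 15.3 ± 0.758 to 22.6 ± 0.976 RPKM, SNHG12 from 4.12 ± 0.134 to 6.09 ± 0.177 RPKM and SNHG21 from 1.76 ± 0.0385 to 3.04 ± 0.224 RPKM. NEAT1, SNHG1, SNHG12 and SNHG21 were firm calls.

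Of a list of 21 measured nuclear and host RNAs 7 rose and 2 fell, with a median of 0.10. GAS5, a host RNA known to accumulate in growth-arrested cells, rose from 36.7 ± 0.649 to 49.8 ± 2.27 RPKM. The falls were MIR22HG, from 7.94 ± 0.644 to 5.48 ± 0.062 RPKM, and TERC, the RNA of telomerase, from 4.01 ± 0.689 to 2.56 ± 0.366 RPKM, and with the replicate block TERC was not called (adjusted p = 0.0501). The calls of GAS5, MIR22HG and TERC were lost in some or all of the fits without NT2 replicate 2 or 3 or SOX2_KD replicate 1, 2 or 3 (adjusted p 0.0541 to 0.147 where lost). The calls of the list came to 4 higher without NT2 replicate 2, 4 higher and 1 lower without NT2 replicate 3 or SOX2_KD replicate 1 and 3 higher without SOX2_KD replicate 2 or 3.

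Several of the largest changes were in short entries. SNORA56, a snoRNA inside DKC1, was at 4.78, 4.64 and 3.59 RPKM in the control and 14.7, 13.9 and 13.3 RPKM in the knockdown (log2 fold change 1.49 ± 0.0948, adjusted p = 0.00107), while DKC1 was at 50.3 RPKM in the control and 53.4 RPKM in the knockdown and did not pass the threshold. HOTAIRM1_2, an entry named after an antisense RNA of the HOXA cluster, was at 1.56, 2.41 and 1.56 RPKM in the control and 5.81, 5.57 and 5.09 RPKM in the knockdown (log2 fold change 1.2 ± 0.119, adjusted p = 0.00495). In both the groups did not overlap. SNORA61, inside SNHG12, rose from 13.6 ± 1.39 to 24 ± 1.85 RPKM, and SNORA45A fell from 3.65 ± 0.235 to 1.34 ± 0.334 RPKM. These 4 calls were firm, but SNORA56 and SNORA61 lie on the strand of DKC1 and SNHG12, whose reads cannot be told apart from theirs. The miRNA entries MIR5581, MIR4712 and MIR6872 rose by 0.96, 0.95 and 1.13, but lie on the strand of the longer genes MEAF6, GABPB1-AS1 and SEMA3B, whose reads cannot be told apart from theirs. The call of MIR5581 was firm, and those of MIR4712 and MIR6872 were lost in some or all of the fits without NT2 replicate 2 or 3 or SOX2_KD replicate 1, 2 or 3 (adjusted p 0.0571 to 0.107 where lost). MIR5581 and MIR6872 could not have passed the level limit without the SOX2_KD libraries, where they are high, so that their calls add no support.

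The other clone-named or short entries among the 15 largest rises and 15 largest falls were RP11-631N16.4 (0.98), Six3os1_1 (0.98), AF274855.1 (0.96), Six3os1_2 (0.95), RP11-496H1.2 (0.92) and Six3os1_5 (0.88), which rose, and CTC-250I14.6 (-1.05) and RP11-69I8.3 (-1.03), which fell. RP11-631N16.4, AF274855.1 and Six3os1_5 were firm. The calls of the others were lost in some or all of the fits without NT2 replicate 2 or 3 or SOX2_KD replicate 2 or 3 (adjusted p 0.0513 to 0.0736 where lost).

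Transcripts of cytosolic ribosomal proteins, whose translation is tied to mTOR through a motif at their 5′ end, mostly had higher means in SOX2_KD, by a small amount. Of 73 measured 32 rose and none fell, 69 had the higher mean in SOX2_KD, and the median log2 fold change was 0.21. RPL4 was at 255, 238 and 246 RPKM in the control and 322, 310.1 and 326 RPKM in the knockdown (log2 fold change 0.37 ± 0.0469, adjusted p = 0.00989). RPL12 was at 177, 169 and 179.6 RPKM in the control and 228, 223 and 222 RPKM in the knockdown (log2 fold change 0.35 ± 0.0445, adjusted p = 0.00989). The groups did not overlap for these, and the SOX2_KD libraries lay above the controls for 52 of the 73. Over all genes they did so for 13.1%, and 3.85% rose. None of the 32 was a firm call: calls numbered 0 without NT2 replicate 2 or SOX2_KD replicate 2 or 3 and 2 higher without NT2 replicate 3, and those of RPL4 and RPL12 were lost without NT2 replicate 2 or SOX2_KD replicate 2 or 3 (adjusted p 0.0538 to 0.0625 where lost). With the replicate block 55 higher and 1 lower were called, and 21 higher in the fit of all 12 libraries. Of 24 genes of ribosome assembly none passed the threshold in the limma fit, 3 had an unadjusted p under 0.05, limma-voom called none, and the block called 3 higher and 2 lower.

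All 29 measured genes of DNA replication and its onset had the lower mean in SOX2_KD (28 under quantile normalization), 15 fell and none rose, and the median was -0.27. Over all genes 4.9% fell. TYMS, thymidylate synthase, was at 99.6, 99.2 and 103 RPKM in the control and 65, 67.2 and 69.8 RPKM in the knockdown (log2 fold change -0.57 ± 0.0465, adjusted p = 0.00279). The groups did not overlap, and it was the 1 firm call of the list. TYMSOS, which fell from 33.5 ± 2.38 to 21.7 ± 1.38 RPKM, and ENOSF1, at 13.3 RPKM in the control and 9.97 RPKM in the knockdown, overlap TYMS on the opposite strand, so that their reads cannot be told apart. GINS2, of the replicative helicase, fell from 8.03 ± 0.0436 to 5.67 ± 0.208 RPKM, UHRF1, which carries DNA methylation through replication, from 10.2 ± 0.27 to 7.09 ± 0.424 RPKM, and PCNA, the sliding clamp, from 82.2 ± 1.95 to 65.2 ± 3.05 RPKM. The calls of GINS2, UHRF1 and PCNA were lost in some or all of the fits without NT2 replicate 2 or 3 or SOX2_KD replicate 2 or 3 (adjusted p 0.0512 to 0.0794 where lost). MCM7, a helicase subunit at 79.7 RPKM in the control and 68 RPKM in the knockdown, did not pass the threshold (adjusted p = 0.051). Calls numbered 3 lower without NT2 replicate 2, 4 lower without NT2 replicate 3, 8 lower without SOX2_KD replicate 1, 2 lower without SOX2_KD replicate 2 and 1 lower without SOX2_KD replicate 3, 8 lower under quantile normalization and 27 lower with the replicate block.

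Of 30 measured mitotic genes 6 fell and none rose, 28 had the lower mean, and the median was -0.12. FOXM1, the factor that drives the mitotic programme, fell from 56 ± 2.74 to 44 ± 1.98 RPKM and the kinase PLK1 from 24.2 ± 0.979 to 19.6 ± 0.872 RPKM, calls lost in some or all of the fits without NT2 replicate 2 or 3 or SOX2_KD replicate 2 or 3 (adjusted p 0.0674 to 0.116 where lost). The mitotic calls numbered 0 without NT2 replicate 2 or SOX2_KD replicate 2 or 3, 1 lower without NT2 replicate 3 and 2 lower without SOX2_KD replicate 1, 2 lower under quantile normalization or in the fit of all 12 libraries, and 1 higher and 15 lower with the replicate block. Under quantile normalization 26 had the lower mean. In bulk RNA, fewer cycling cells and less of these RNAs per cell cannot be told apart.

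Of 25 measured histone genes 5 fell and 2 rose, with a median of -0.35. H2AFZ, a replacement histone, fell from 117 ± 1.4 to 94.8 ± 2.75 RPKM and HIST1H1E, a linker histone, from 11.4 ± 2.12 to 6.72 ± 0.412 RPKM, while HIST1H2BK rose from 18.9 ± 2.9 to 27.4 ± 2.22 RPKM. Their calls were lost in some or all of the fits without NT2 replicate 2 or 3 or SOX2_KD replicate 1, 2 or 3 (adjusted p 0.0614 to 0.137 where lost). HIST1H2AM, chosen after its value had been seen, fell from 7.53 ± 0.812 to 3.37 ± 0.613 RPKM (log2 fold change -0.97 ± 0.114, adjusted p = 0.00847, firm) and overlaps HIST1H3J, at 3.90 RPKM in the control and 1.78 RPKM in the knockdown. For the whole list the calls were 2 higher and 12 lower without NT2 replicate 1, 1 lower without NT2 replicate 2 or 3 or SOX2_KD replicate 2, 1 higher and 2 lower without SOX2_KD replicate 1 and 0 without SOX2_KD replicate 3, and 2 higher and 13 lower with the replicate block.

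The mitochondrial genome is transcribed as long precursors, from which transfer RNAs are cut out between the messages. Its messenger RNAs were higher in SOX2_KD and most of its transfer RNAs lower. The transfer RNAs whose calls were firm are shown from GENCODE v29 (GRCh38) for the size of the counted feature: MT-TV, chrM:1602-1670, has 69 bases and MT-TM, chrM:4402-4469, has 68, both on the + strand and shorter than a read of 101 bases.
MT-TV: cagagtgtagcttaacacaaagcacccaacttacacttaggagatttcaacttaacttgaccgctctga
MT-TM: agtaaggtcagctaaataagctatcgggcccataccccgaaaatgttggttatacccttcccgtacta

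All 13 messenger RNAs had higher means in SOX2_KD, with every SOX2_KD library above every control, and 9 rose. Over all genes 13.1% had every SOX2_KD library above every control, and 3.85% rose. MT-CO1, a cytochrome oxidase subunit, was at 3233, 3473 and 3337 RPKM in the control and 4762, 4589 and 4487 RPKM in the knockdown (log2 fold change 0.46 ± 0.0505, adjusted p = 0.00678). MT-ND4, of complex I, rose from 3398 ± 372 to 5383 ± 204 RPKM, a call lost without SOX2_KD replicate 2 or 3 (adjusted p 0.0528 and 0.0554). MT-CO1 was the firm call among them, and calls numbered 2 higher without NT2 replicate 2 or 3, 3 higher without SOX2_KD replicate 1 and 1 higher without SOX2_KD replicate 2 or 3. Under quantile normalization no messenger RNA was called, 10 had the higher mean and 2 the lower. The share of mitochondrial reads was higher in SOX2_KD, as given above, and its part in these changes was not tested. The ribosomal RNA MT-RNR2 rose from 6513 ± 1008 to 9665 ± 579 RPKM, a call lost without NT2 replicate 2 or 3 or SOX2_KD replicate 1, 2 or 3 (adjusted p 0.0809, 0.056, 0.0643, 0.113 and 0.109), while MT-RNR1 was at 7035 RPKM in the control and 5931 RPKM in the knockdown and did not pass the threshold.

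Of the 22 transfer RNAs 11 fell and 3 rose, with a median of -0.50. MT-TV, the transfer RNA for valine, was at 538, 665 and 661 RPKM in the control and 289.6, 300.4 and 301 RPKM in the knockdown (log2 fold change -1.06 ± 0.086, adjusted p = 0.00279). MT-TM, for methionine, was at 30.3, 41.5 and 31.6 RPKM in the control and 16.1, 16.3 and 17.2 RPKM in the knockdown (log2 fold change -1.0 ± 0.114, adjusted p = 0.00775). The groups did not overlap in either. MT-TA fell from 43.3 ± 8.95 to 16.7 ± 4.07 RPKM, MT-TF from 948 ± 251 to 376 ± 39.5 RPKM and MT-TW from 93.9 ± 20.8 to 45.8 ± 9.16 RPKM, calls lost in some or all of the fits without NT2 replicate 2 or 3 or SOX2_KD replicate 1, 2 or 3 (adjusted p 0.0552 to 0.108 where lost). Called members of the list numbered 4 lower without NT2 replicate 2 or SOX2_KD replicate 2, 5 lower without NT2 replicate 3, 9 lower without SOX2_KD replicate 1 and 3 lower without SOX2_KD replicate 3.

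All 14 transfer RNAs on the + strand had lower means in SOX2_KD, with log2 fold changes between -1.30 and -0.04, and 9 fell. Of the 8 on the − strand 2 fell and 3 rose, MT-TE, MT-TC and MT-TY, calls lost without NT2 replicate 2 or 3 or SOX2_KD replicate 1, 2 or 3 (adjusted p 0.0554 to 0.136 where lost). Strand was not marked, so the strand given is that of the gene and not of the reads. All are 59 to 75 bases long, so that a read touching one extends into its neighbours, and how such reads were assigned is not given in the sources used here.

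**Figure D5:**
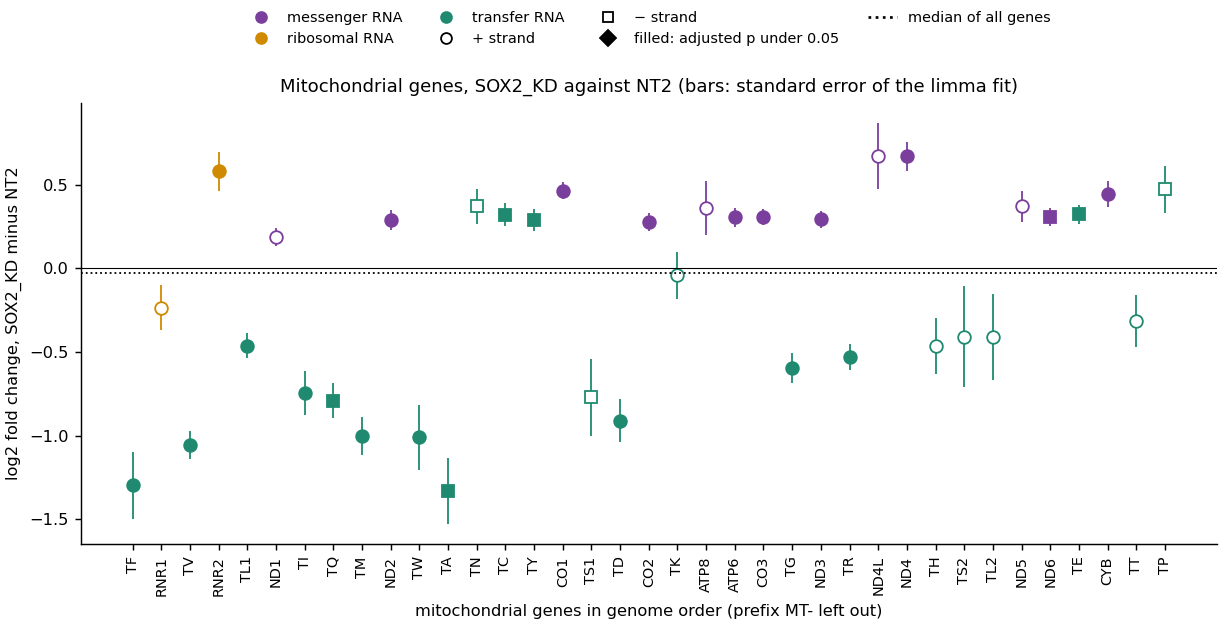
Log2 fold change of SOX2_KD minus NT2 with its standard error for the mitochondrial genes in genome order, coloured by RNA class, circles for the + and squares for the − strand, filled where called. The 13 messenger RNAs lie above 0 and the 14 + strand transfer RNAs below it.

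Genes of developmental signalling need a separate account. The deposited values of 23 genes, many of them in the Hedgehog, Notch and Wnt pathways, did not turn into whole reads at any single gene length, whereas 99.94% of 38880 entries did within 0.001 reads. Of the 23, 16 were measured here, SOX2 among them. All 16 had lower means in SOX2_KD, with every SOX2_KD library below every control, and 13 fell and none rose, whereas 58.2% of the other genes had the lower mean. Over all genes 20.1% had every SOX2_KD library below every control, and 4.9% fell. How these values were made is not given in the sources used here. Their standard errors and p-values, those of SOX2 included, may therefore not reflect a spread between counted reads. The calls among these 16, firm or not, describe the deposited values and add no support.

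FGFR2, a receptor of fibroblast growth factors, had the largest fall among the 16. It was at 10.9, 11 and 11 RPKM in the control and 0.974, 0.963 and 0.973 RPKM in the knockdown, 0.0886 of the control mean (log2 fold change -2.6 ± 0.0447, adjusted p = 9.69e-07, firm). At the length that made the most libraries whole these are 7470, 9010 and 6330 reads in NT2, each a multiple of 10, and 906, 665 and 603 in SOX2_KD. The other 8 measured genes of the FGF list did not pass the threshold, and with the replicate block calls in the list numbered 3 lower.

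In the Hedgehog pathway 4 of 11 measured genes fell. HHAT, the acyltransferase of the ligand, fell from 1.61 ± 0.0619 to 0.525 ± 0.0697 RPKM, and the transducer SMO from 9.72 ± 0.0134 to 6.46 ± 0.168 RPKM, both firm. The transcription factors GLI1 and GLI2 fell from 8.81 ± 0.647 to 6.23 ± 0.375 RPKM and from 0.755 ± 0.00114 to 0.504 ± 0.00392 RPKM, calls lost in some or all of the fits without NT2 replicate 1, 2 or 3 or SOX2_KD replicate 1, 2 or 3 (adjusted p 0.0567 to 0.135 where lost). All 4 lack whole reads, and of the 7 members with whole reads none was called in the limma fit and 1 had an unadjusted p under 0.05. Over all 11 members limma-voom on the recovered reads called 1 higher and 4 lower, and in the fits with a library left out calls numbered 2 lower without NT2 replicate 2 or SOX2_KD replicate 2 or 3.

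In Notch signalling 2 of 15 measured genes fell, the sheddase ADAM17 from 30.6 ± 0.113 to 20.1 ± 0.0782 RPKM and the receptor NOTCH3 from 8.53 ± 0.382 to 5.24 ± 0.0999 RPKM, both firm and without whole reads, against 0 of 13 with whole reads in the limma fit, of which 4 had an unadjusted p under 0.05. Over the whole list limma-voom called 4 lower. Among 10 Wnt genes LEF1, a nuclear partner of β-catenin, fell from 1.88 ± 0.0059 to 0.891 ± 0.0234 RPKM, firm and without whole reads, against 0 of 8 with whole reads in the limma fit, of which 4 had an unadjusted p under 0.05. Over the whole list limma-voom called 3 lower. In the TGF-β and BMP list 3 of 15 fell: the ligand BMP7 from 4.82 ± 0.158 to 3.21 ± 0.00254 RPKM, firm and without whole reads, and SMAD7, an inhibitor, from 2.18 ± 0.16 to 1.43 ± 0.0656 RPKM and SMAD1, a transducer of BMP signals, from 5.55 ± 0.232 to 4.2 ± 0.0604 RPKM, both with whole reads. The calls of SMAD7 and SMAD1 were lost without NT2 replicate 2 or 3 or SOX2_KD replicate 2 or 3 (adjusted p 0.0552 to 0.0812 where lost), and calls in that list numbered 1 higher and 4 lower without NT2 replicate 1 and 1 lower without NT2 replicate 2 or 3 or SOX2_KD replicate 2 or 3. The replicate block gave 6 lower for Notch, 1 higher and 5 lower for Wnt and 1 higher and 6 lower for TGF-β and BMP.

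Of 22 measured genes of the unfolded protein response 3 fell and none rose, with a median of -0.08. Among them CALR, a chaperone of the endoplasmic reticulum, fell from 205 ± 5.88 to 156 ± 3.6 RPKM and PDIA4, a disulfide isomerase, from 65.6 ± 0.425 to 54.7 ± 1.04 RPKM. Of 19 targets of ATF4, the factor of amino acid stress, 4 fell and none rose, with a median of -0.10. PSAT1, of serine synthesis, fell from 57.9 ± 1.95 to 43.9 ± 1.49 RPKM, ASNS, asparagine synthetase, from 30.4 ± 0.787 to 24.4 ± 1.01 RPKM and CHAC1, which degrades glutathione, from 6.0 ± 0.45 to 4.0 ± 0.50 RPKM. The calls of these genes were lost in some or all of the fits without NT2 replicate 2 or 3 or SOX2_KD replicate 2 or 3 (adjusted p 0.0541 to 0.098 where lost). In the first list calls numbered 1 lower without NT2 replicate 2 or 3 and 0 without SOX2_KD replicate 2 or 3, and 9 lower with the replicate block, and in the second 0 without NT2 replicate 2 or SOX2_KD replicate 2 or 3 and 1 lower without NT2 replicate 3, and 2 higher and 9 lower with the block. Of 19 HOX genes and 13 heat shock chaperones none was called in the limma fit, 4 and 3 had an unadjusted p under 0.05, limma-voom called none and 1 lower, and the block called 1 higher and 3 lower of the former and 6 lower of the latter.

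Markers of epithelial and mesenchymal state were both present. VIM, the mesenchymal filament, was at 339.9 RPKM in the control and 314 RPKM in the knockdown, while the epithelial adhesion genes CDH1 and EPCAM were at 0.0153 ± 0.00972 RPKM and 0.0286 ± 0.00249 RPKM in NT2. Of 10 measured epithelial genes 3 rose and none fell: the keratin KRT18 from 55.1 ± 2.34 to 70.1 ± 1.8 RPKM, the desmosome gene PKP2 from 4.27 ± 0.247 to 5.73 ± 0.132 RPKM and the tight junction gene CLDN1 from 25.8 ± 1.52 to 32 ± 0.89 RPKM. KRT8, whose span overlaps KRT18 on the other strand, was at 36.2 RPKM in the control and 42.4 RPKM in the knockdown and did not pass the threshold. Of 9 mesenchymal genes CDH2, N-cadherin, fell from 0.602 ± 0.0124 to 0.348 ± 0.0451 RPKM, a gene that passed the level limit only through the NT2 libraries, where it is high. The calls of these genes were lost in some or all of the fits without NT2 replicate 1, 2 or 3 or SOX2_KD replicate 1, 2 or 3 (adjusted p 0.0522 to 0.134 where lost), and epithelial calls numbered 4 higher and 1 lower without NT2 replicate 1 and 0 without NT2 replicate 2 or 3 or SOX2_KD replicate 2 or 3, and 5 higher and 1 lower with the replicate block. The mesenchymal calls were 2 lower with it.

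Of 12 squamous markers, for which SOX2 is known as a lineage factor, 2 were measured and 9 were under 0.1 RPKM in all 6 libraries. KRT15, a basal keratin, fell from 5.49 ± 0.153 to 3.57 ± 0.0871 RPKM (log2 fold change -0.51 ± 0.048, adjusted p = 0.00428), a firm call, and holds the miRNA entry MIR6510, whose reads cannot be told apart from its own. The other measured squamous marker had a log2 fold change of 0.065 and did not pass the threshold. The squamous list, most of it KRT15, summed to 6.11 to 6.72 RPKM in the control and 4.37 to 4.95 RPKM in the knockdown. Airway and alveolar markers, of which 3 were measured and none was called, summed to 11.2 to 12.1 RPKM in the control and 13.3 to 14 RPKM in the knockdown. Of 10 fibroblast markers 6 were under 0.1 RPKM in all 6 libraries. The list summed to 23.7 to 27.5 RPKM in the control and 20.8 to 22.7 RPKM in the knockdown, and FAP rose from 1.3 ± 0.0461 to 1.97 ± 0.0426 RPKM while THY1 fell from 22.4 ± 1.88 to 17.9 ± 0.973 RPKM. Of 10 immune markers CD68, which is also read in many non-immune cells, was measured, and it rose from 18.5 ± 1.34 to 23.4 ± 1.87 RPKM. Of the 8 that the deposited values include, 6 were under 0.1 RPKM in all 6 libraries, and the list summed to 17.6 to 20.2 RPKM in the control and 22.4 to 25.8 RPKM in the knockdown. The calls of FAP, THY1 and CD68 were lost in some or all of the fits without NT2 replicate 2 or 3 or SOX2_KD replicate 1, 2 or 3 (adjusted p 0.0525 to 0.165 where lost). The 9 endothelial markers summed to 0.333 to 0.363 RPKM in the control and 0.254 to 0.385 RPKM in the knockdown and none was measured.

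Other firm rises were in single genes of varied function. VAMP1, a vesicle fusion protein, rose from 8.79 ± 0.147 to 16.2 ± 0.555 RPKM, BCL6, a transcriptional repressor, from 2.55 ± 0.0993 to 4.64 ± 0.179 RPKM, and ARL14, a small GTPase, from 2.17 ± 0.0966 to 5.11 ± 0.697 RPKM. VAMP1 overlaps TAPBPL on the opposite strand, which was at 5.44 RPKM in the control and 6.80 RPKM in the knockdown. SPP1, the secreted protein osteopontin, rose from 0.301 ± 0.0632 to 0.983 ± 0.0293 RPKM and CXCR4, the receptor of the chemokine CXCL12, from 0.493 ± 0.043 to 1.08 ± 0.0384 RPKM. LAMA4, a laminin chain, rose from 0.431 ± 0.0372 to 1.24 ± 0.051 RPKM and NNMT, which methylates nicotinamide, from 0.823 ± 0.101 to 1.78 ± 0.0577 RPKM. The log2 fold changes of SPP1, CXCR4, LAMA4 and NNMT, 0.61, 0.48, 0.64 and 0.61, understate the ratios of these low genes, since 1 is added before the log. SPP1 and LAMA4 passed the level limit only through the SOX2_KD libraries, where they are high. CXCR4, whose mean in NT2 lay under the limit, could not have passed it without those libraries. The calls of SPP1, LAMA4 and CXCR4 therefore add no support.

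Other firm falls were S100A6, a calcium-binding protein, from 116 ± 4.86 to 74.4 ± 1.43 RPKM, and USP22, a deubiquitinase of the SAGA complex, from 94.6 ± 3.98 to 63 ± 1.61 RPKM. PADI2, which converts arginine to citrulline, fell from 46.1 ± 2.3 to 28 ± 1.46 RPKM and RBM3, a cold-induced RNA-binding protein, from 57.3 ± 1.53 to 41.6 ± 1.48 RPKM. SHBG, known as a steroid carrier of the blood, fell from 1.86 ± 0.166 to 0.477 ± 0.126 RPKM. Its mean in SOX2_KD lay under the level limit. It could not have passed without the NT2 libraries, where it is high, so that its call adds no support. USP22 overlaps CCDC144NL-AS1, at 9.54 RPKM in the control and 6.29 RPKM in the knockdown, and SHBG overlaps FXR2 and SAT2, all on the opposite strand. Most of these single genes were chosen after their values had been seen, and in each of them the groups did not overlap.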

How the data were processed

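The authors deposited a table of RPKM values for 64253 entries in 12 libraries, with units per the file headers. The submitters' processing notes name TopHat2 2.1, Bowtie 1.1.2, featureCounts and the build GRCh38, without roles. Values were turned back into reads (99.94% of 38880 entries gave whole reads within 0.001), which gave the read totals. The 7091 entries with a repeated or date-like name were left out, of which 862 passed the level limit. They held 4.37% to 4.59% of the reads.

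NT2 and SOX2_KD were compared by limma-trend (limma 3.58.1, R 4.3.3) on log2(RPKM + 1), a pseudocount of 1, with Benjamini-Hochberg adjustment over 17163 genes and a threshold of 0.05. An exact permutation test of 3 against 3 libraries cannot go below 0.1, so none was used. Alternatives changed the pseudocount, the level limit, the scaling, the libraries, the replicate block or the test (limma-voom on recovered reads). The replicate numbers, taken from the titles, were treated as pairs in the block, which was planned. Deviations from the group means of libraries with the same number correlated at 0.55, 0.28 and 0.26 across genes, and those with different numbers at -0.42 to 0.26. NT2 replicate 3 correlated at 0.26 with SOX2_KD replicate 2 and at 0.26 with SOX2_KD replicate 3, so that pairing of replicates 2 and 3 is not shown. Genes were named as the 15 largest rises and 15 largest falls, members of gene lists, genes that overlap or neighbour these, and some single genes chosen after their values were seen. Members and lists were chosen with earlier results of these data known. Overlaps come from GENCODE v29, promoters from RefSeq GRCh38.p14, which matched 15 of 21 genes searched.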

Additional observations from a re-analysis of the deposited data

How the results depend on the processing

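The count of 1501 called genes moved to 618 with no level limit, 5235 with the replicate block and 4167 without replicate 1 of both groups, an alternative chosen after seeing the data, and the fits that left out 1 library gave 133 to 1898. Other settings gave 1343 (quantile normalization) to 1923 (limma-voom on recovered reads). The log2 fold change of SOX2 ranged from -0.69 to -0.64 when a library was left out and stayed past the threshold in every setting run, at -0.66 with the replicate block, with -1.25 at a pseudocount of 0.1 and -0.22 at a pseudocount of 5. Of 150 other named genes, 10 lost their call under quantile normalization and 4 under median-of-ratios scaling, and 69 without SOX2_KD replicate 3. The replicate block ended the call of TERC and added 7. The log2 fold change of PRKCI, which was never called, turned to 0.00070 under quantile normalization and ranged from -0.12 to 0.020 when a library was left out, above 0 without NT2 replicate 3 (0.0049) or SOX2_KD replicate 1, and the cause was not tested. With 3 libraries a group, a gene that missed the threshold is not shown to be unchanged.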

Other observations

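PDIA3P2, a pseudogene, had the lowest log2 fold change of the measured genes that did not pass the threshold, at -2.98 (adjusted p = 0.138). It was at 25.3, 41.1 and 25.4 RPKM in NT2 and at 27.2, 0.818 and 0.152 RPKM in SOX2_KD, so that replicate 1 of SOX2_KD lay among the controls and the other 2 far below them.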
